A study of Mus musculus with 3 samples.

Results

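The genes described are Thbs1, Cd47, Sirpa and Cd36, a secreted ligand and the cell surface proteins that bind it or each other. They were chosen by name as 4 of the 31053 genes in a single-cell RNA table, after earlier results of the same table were known. Their levels were followed over 13 deposited cell clusters in brains with metastases and naive brains. Thbs1 had stood out in cluster 2 of the brains with metastases, so its level there is given as a description, with no test.

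Cells from mouse brains were profiled by CITE-seq, a droplet method that sequences a cell's RNA along with barcoded antibodies on its surface. The brains with metastases came from female C57Bl/6 mice, 2 to 3 months old, about 2 weeks after E0771 cells, a mouse mammary carcinoma line, were injected into the carotid artery. The naive brains came from female C57Bl/6 mice of the same age without metastases. All suspensions were papain-digested and enriched for mononuclear cells on Percoll, stained with 6 surface antibodies and 1 hashing antibody per brain, and loaded as a single pool. The design text speaks of 6 samples, while the tables analysed here hold 4 hashing antibodies, 2 for each condition, and a label speaks of 1 brain hemisphere.

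Thrombospondin-1, encoded by Thbs1, is a large matricellular glycoprotein that platelets, macrophages and stromal cells release at sites of injury. It binds CD36, a scavenger receptor for lipids, through its type 1 repeats, and CD47, an integrin-associated protein found on most cells, through its C-terminal domain. CD47 is also the ligand of SIRPα, encoded by Sirpa, an inhibitory receptor of macrophages, microglia and some neurons that restrains phagocytosis.

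Depth and identity bear on every value below. Metastasis 1 and 2 held 5360 and 6174 cells with 45724262 and 57620835 UMIs (unique transcript tags), and naive 1 and 2 held 572 and 315 cells with 1691221 and 694223 UMIs. Clusters 0, 1, 3 and 4 held 68.9% and 66.1% of cells of the brains with metastases, and most of these cells had a UMI of a carcinoma marker (Krt8, Krt18, Krt19 or Epcam). The same clusters held 69 of 572 cells labelled naive 1 and 19 of 315 labelled naive 2, of which 97.1% and 73.7% had such a UMI. These cells go against the naive label, and why was not tested. Cluster 2 was monocyte-like, with all 10 monocyte markers raised over the other clusters, and 8 of 11 macrophage markers were raised too. Clusters 7 and 9 were choroid plexus-like (8 of 9 markers each), cluster 6 was endothelial-like (10 of 10) and cluster 11 was mural-like (5 of 10). The same 5 mural markers were also raised in cluster 6. With metastases, mural markers summed to 252 and 716 CPM in cluster 6, against 3066 and 2483 CPM in cluster 11. Cluster 12 held microglia genes (11 of 11 markers) together with the neutrophil genes S100a8, S100a9 and Camp among its leading genes, and was left unnamed. Cluster 8 mixed T cell, NK cell and MHC class II genes and was left unnamed too.

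Thbs1, the ligand, was concentrated in cluster 2. Levels are given as CPM, counts per 1000000 UMIs of the cluster in that brain. Thbs1 had 1353 and 1346 UMIs in cluster 2 of metastasis 1 and metastasis 2, or 886 and 585 CPM. These were 81.4% and 77.0% of all Thbs1 UMIs in those brains, from 718 and 1063 cells. Naive brains had only 10 and 5 cells there, with 1 and 7 Thbs1 UMIs, and 6 of the 7 came from a single cell, so no comparison was made in cluster 2.

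The next levels of Thbs1 in brains with metastases were in clusters 12 and 9. Cluster 12 had 610 and 91.7 CPM in metastasis 1 and 2, from 23 and 3 UMIs, against 0 and 48.6 CPM in naive 1 and 2, from 0 and 4 UMIs. The mean of 351 ± 367 CPM in brains with metastases (SD, n = 2) does not separate cluster 12 from either neighbour in the order. In metastasis 1, 9 of 26 cells of cluster 12 held Thbs1 UMIs, and monocyte markers there summed to 2361 CPM, against 703 CPM in metastasis 2. Choroid plexus markers summed to 12361 and 5319 CPM. The part of monocyte-like and choroid plexus-like cells in the Thbs1 level of cluster 12 was not tested. Cluster 9 followed at 160 and 169 CPM in brains with metastases.

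**Figure D1:**
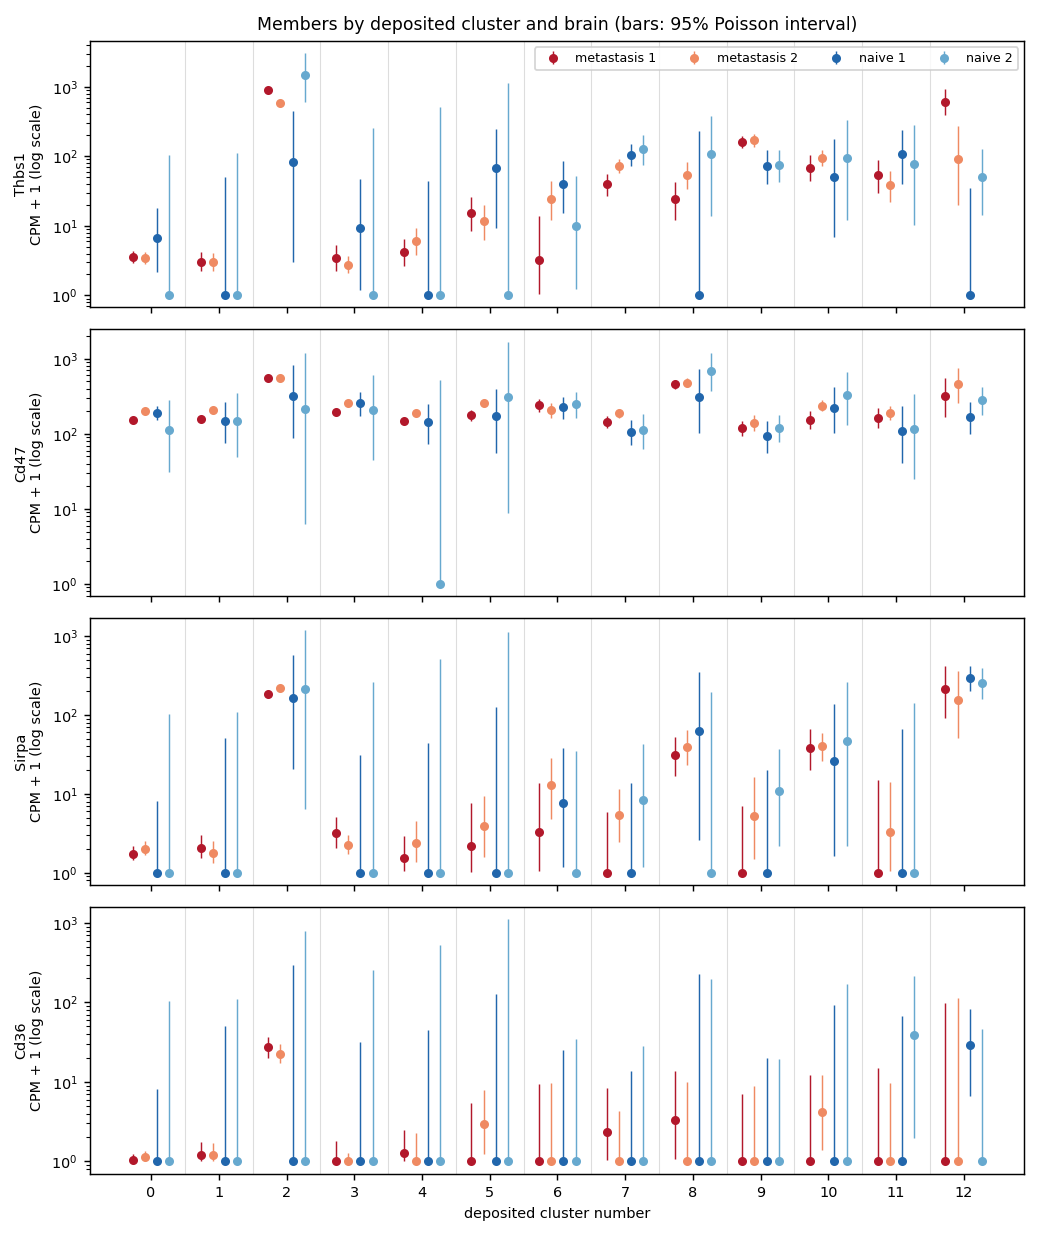
CPM of Thbs1, Cd47, Sirpa and Cd36 (log axis, 1 added) in each deposited cluster, with 1 point for each brain and bars for the 95% Poisson interval, which covers counting error only. Among brains with metastases, Thbs1 and Cd36 are highest in cluster 2 and Sirpa in clusters 2 and 12, while Cd47 lies above 100 CPM in every cluster of those brains.

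Shares of cells also put cluster 2 first for Thbs1 in both brains with metastases. With each cell thinned to 1000 UMIs, 42.0% of cluster 2 cells of metastasis 1 (219 of 521, exact 95% interval 37.8 to 46.4%) and 30.7% of metastasis 2 (228 of 742, 27.4 to 34.2%) held a Thbs1 UMI. Without thinning, the mean share over both brains was 45.8%. In cluster 0, whose carcinoma-marker cells were taken as a background of free RNA, 0.488% and 0.199% of cells did so at the same thinned depth. Median depths before thinning were 1547.5 and 1466 UMIs in cluster 2 and 13259.5 and 15283 in cluster 0. Thinning deep cells also thins their free RNA, so this background may be too low for shallow clusters. Before thinning, 3.60% and 3.90% of cluster 0 cells held a Thbs1 UMI, against 51.8% and 39.8% in cluster 2. Cluster 12 came next, at 35.3% (6 of 17 cells, 14.2 to 61.7%) and 11.1% (1 of 9 cells, 0.281 to 48.2%), and its intervals span those of cluster 2. Cluster 9 had 10.3% and 9.72%, cluster 7 had 5.59% and 7.25%, cluster 10 had 4.55% and 7.95%, and cluster 11 had 4.35% and 5.88%. The order of clusters 7, 10 and 11 is within their intervals, and by CPM cluster 10 was above cluster 7. Cluster 8 had 0.943% and 1.77%, and its intervals (0.0239 to 5.14% and 0.215 to 6.25%) hold the shares of cluster 0 before thinning.

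Free RNA from 1 source keeps its genes in 1 ratio, so Thbs1 was set against Lyz2, the lysozyme gene of myeloid cells. Cluster 2 had 48.7 and 54.3 Thbs1 UMIs per 1000 Lyz2 UMIs in metastasis 1 and 2. Cluster 0 had 62.9 and 69.1, and cluster 1 had 44.1 and 49.3, at Thbs1 levels of only 2.04 to 2.58 CPM. Cluster 9 had 1485 and 4706, on 66 and 17 Lyz2 UMIs, and cluster 7 had 604 and 853. The mural-like cluster 11 had 1167 and 242, on 12 and 66 Lyz2 UMIs. Thbs1 UMIs of the choroid plexus-like clusters, and of cluster 11, thus came with fewer Lyz2 UMIs than those of cluster 2.

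Cd47, which binds both thrombospondin-1 and SIRPα, was present in every cluster. It averaged 552 ± 1.30 CPM in cluster 2 of brains with metastases (SD, n = 2), 467 ± 17.4 CPM in cluster 8 and 388 ± 99.2 CPM in cluster 12. Clusters 8 and 12 do not differ beyond their spread. Carcinoma-marker clusters were lower: cluster 0 had 153 and 200 CPM, and cluster 3, led by the interferon-induced genes Usp18, Isg15 and Ifit1, had 195 and 255 CPM. Cluster 9 was lowest, at 118 and 140 CPM. Because clusters 0 to 4 were large, cluster 0 alone held 43.9% and 37.0% of all Cd47 UMIs of the brains with metastases, against 10.6% and 9.58% in cluster 2. No cell type here is known to lack Cd47, so no background share could be set for it.

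Sirpa was highest in clusters 2 and 12. Of these, only cluster 2 was also clearly high in Thbs1 in both brains with metastases. Thbs1 in cluster 12 rested on 23 and 3 UMIs, and in metastasis 2 it was below cluster 9. Cluster 2 had 185 and 219 CPM in metastasis 1 and 2, from 282 and 504 UMIs, and held 79.2% and 81.4% of the Sirpa UMIs of those brains. Cluster 12 had 212 and 153 CPM in metastasis 1 and 2, against 297 and 255 CPM in naive 1 and 2. Clusters 2 and 12 of the brains with metastases do not differ in Sirpa beyond their spread. The naive brains were both above the brains with metastases there, on 8 and 5 UMIs in metastasis 1 and 2, and 15 cells in metastasis 2 were too few for a test. Microglia markers in cluster 12 summed to 7321 and 4035 CPM with metastases, against 14607 and 13166 CPM in naive brains. Macrophage markers summed to 14138 and 9385 CPM, against 28334 and 30669 CPM, and neutrophil markers to 53.1 and 91.7 CPM, against 602 and 32418 CPM. The part of these cell types in the Sirpa level was not tested. At 1000 UMIs per cell, 15.7% and 18.5% of cluster 2 cells held Sirpa, against 0.061% and 0.0662% of cluster 0 cells. Before thinning the shares were 29.4% and 32.4%, against 1.04% and 1.65% of the deeper cluster 0 cells.

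Cd36 was sparse. Cluster 2 had 40 and 50 UMIs in metastasis 1 and 2, or 26.2 and 21.7 CPM, which were 87.0% and 84.7% of the Cd36 UMIs of those brains. At 1000 UMIs per cell 2.30% and 2.29% of its cells held a UMI, while 0 of 1640 and 0 of 1511 cluster 0 cells did, which allows up to 0.183% and 0.199% (3 cells of the total). Before thinning, 4.46% and 3.76% of cluster 2 cells held a Cd36 UMI, against 0.061% and 0.198% of the deeper cluster 0 cells. In naive brains Cd36 reached 3 UMIs at most in any cluster, in cluster 12 of naive 1.

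Genes with the most similar pattern over the 13 clusters were found by Pearson's r of log2 levels among 5302 genes, as a description. For Thbs1 they were Fam213b (0.93), Pid1 (0.92), Cflar (0.92), Slc7a8 (0.91) and Fam46a (0.91). For Cd47 they were Shisa5 (0.98), Sp110 (0.98), Sp140 (0.98), Birc3 (0.97) and Psmb9 (0.96). For Sirpa they were Slc15a3, Mpeg1, Ccl6, Pou2f2 and Nlrp3, all at 0.99. For Cd36 they were Pf4 (1.00), S100a9, Ngp, Gdf3 and Ccl8 (0.99 each). Cd36 averaged 24.0 CPM in cluster 2 and at most 1.57 CPM in any other cluster of the brains with metastases. Its r is therefore set largely by 1 cluster, and genes found mainly in cluster 2 come out alike. Neutrophil markers in cluster 2 summed to 1342 and 171 CPM in metastasis 1 and 2. The clusters of 1 pool share its free RNA.

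Metastasis was compared with naive in the 4 clusters with at least 20 cells in every brain, by edgeR quasi-likelihood fits on summed counts. The labels do not say whether the brains were prepared on separate days or from separate mice. The p-values therefore cover the spread of these 4 suspensions, which may be technical. Thbs1 fell in cluster 7 and rose in cluster 9. In cluster 7 its TMM-scaled level was 37.6 and 68.3 CPM in brains with metastases, against 122 and 143 CPM in naive brains, a log2 fold change of -1.26 (SE 0.35, edgeR adjusted p = 0.0217). In cluster 9 it was 172 and 176 CPM, against 78.9 and 85.0 CPM, a log2 fold change of 1.08 (SE 0.29, edgeR adjusted p = 0.0262). The groups did not overlap in either cluster, which says little with 2 brains against 2. The groups of Cd47 in clusters 7 and 11 and of Thbs1 in cluster 11 did not overlap either, and these were not called. The share of all genes without overlap was not counted in these clusters. Of all genes tested, 31.1% were called in cluster 7 and 4.29% in cluster 9.

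The metastasis effect on Thbs1 differed between these 2 choroid plexus-like clusters by 2.33 log2 units (SE 0.43, edgeR interaction adjusted p = 0.000121), where 6.9% of 5363 genes were called. DESeq2 on the same brains and cells called neither change, with adjusted p of 0.150 in cluster 7 and 0.217 in cluster 9, nor the difference between them (2.20, adjusted p = 0.0961). Without cells holding a carcinoma-marker UMI, the change in cluster 7 was 0.13 (edgeR adjusted p = 0.917). The difference between the clusters was as large without them (2.41) and did not pass (edgeR adjusted p = 0.246). Krt18, among these markers, was raised in clusters 7 and 9 themselves, so this filter does not pick out carcinoma RNA alone. It left out 48.9% and 33.9% of naive cells in cluster 7, and 65.0% and 75.0% in cluster 9. The call in cluster 9 was lost without naive 1, naive 2 or metastasis 1, with edgeR adjusted p of 0.419, 0.217 and 0.146, and that in cluster 7 without metastasis 1, at 0.0535. One cell held 15 of the 81 Thbs1 UMIs of cluster 7 in metastasis 2, and 1 cell held 20 of the 80 in cluster 9.

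Other measures moved with Thbs1 in cluster 7. Carcinoma-marker UMIs were found in 59.5% and 74.3% of its cells with metastases, against 48.9% and 33.9% in naive brains. All 9 choroid plexus markers had UMIs, and they summed to 128142 and 76467 CPM with metastases, against 283836 and 267494 CPM in naive brains. In cluster 9 that sum was 364461 and 329126 CPM, against 400089 and 417277 CPM. Cluster 7 cells with metastases also had a lower median share of mitochondrial UMIs, at 4.79% and 1.74%, against 8.94% and 12.9%. Their median depth was 3149 and 4910 UMIs, against 2054 and 1988.5 UMIs. Doublets were called in 18 of 153 and 15 of 148 cells, against 1 of 135 and 2 of 62 cells. Neutrophil markers summed to 6.64 and 8.89 CPM, against 1790 and 14.9 CPM. The part of these measures in the Thbs1 values was not tested beyond the fits without carcinoma-marker cells or doublets.

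**Figure D2:**
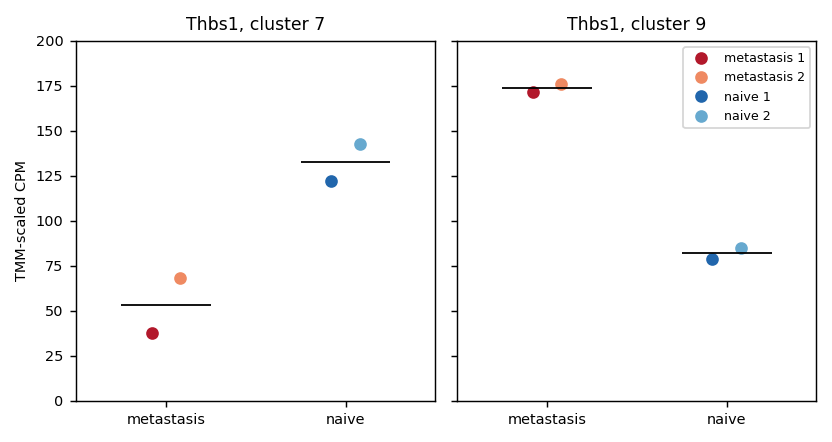
TMM-scaled CPM of Thbs1 in clusters 7 and 9, with 1 point for each brain and a line at the mean of each condition. The brains with metastases lie below the naive brains in cluster 7 (37.6 and 68.3 CPM) and above them in cluster 9 (172 and 176 CPM).

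Thbs1 in cluster 11 was 60.0 and 42.0 TMM-scaled CPM with metastases, against 132 and 91.7 in naive brains, and did not pass (log2 -1.25, edgeR adjusted p = 0.197, 16.1% of genes called). Its cells had median depths of 9974 and 10370 UMIs with metastases, against 814 and 871 in naive brains. Carcinoma-marker UMIs were in 77.8% and 83.8% of them, against 14.6% and 3.7%, and mural markers summed to 3066 and 2483 CPM, against 18367 and 32603 CPM. The part of these measures in the Thbs1 level was not tested. Thbs1 did not pass the filter on low counts in cluster 6, where 7.58% of genes were called. Cd47 passed the filter in all 4 clusters and the test in 0 of them. Its log2 fold changes were -0.07 (SE 0.27), 0.37 (SE 0.27), 0.19 (SE 0.28) and 0.59 (SE 0.51) in clusters 6, 7, 9 and 11, with edgeR adjusted p of 0.915, 0.322, 0.811 and 0.502. Sirpa and Cd36 passed the filter in none of the 4.

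Cells of cluster 2 were then split by Thbs1 to see what else differed between them. Each cell was thinned to 900 UMIs to give all cells equal depth, and was positive with at least 1 Thbs1 UMI. Metastasis 1 gave 230 positive and 331 negative cells, and metastasis 2 gave 229 and 579. Sums per brain and call were fitted in edgeR with brain as a block, which leaves 1 residual degree of freedom, and Thbs1 itself was left out. The SE and p-values of such splits therefore rest largely on UMIs summed over cells. They say little of the spread between brains, however small they are. Of 3334 genes, 91 were higher in positive cells (2.73%) and 50 were lower (1.5%), 4.23% in all. Without the block 10 were higher and 1 lower, and DESeq2 with the block gave 14 and 5. A 1-UMI call leaves many expressing cells among the negative ones.

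Of 13 monocyte genes tested, 9 were higher in Thbs1-positive cells and 4 were not called. Chil3, a chitinase-like protein of inflammatory monocytes, had 1259 and 1373 TMM-scaled CPM in positive cells of metastasis 1 and 2, against 470 and 345 CPM in negative cells (log2 1.73, SE 0.11, edgeR adjusted p = 9.45e-50). Vcan, the proteoglycan versican, had 227 and 178 CPM in positive cells, against 47.7 and 44.4 CPM in negative cells (log2 2.10). Slpi, a secreted protease inhibitor, had 924 and 964 CPM, against 360 and 256 CPM (log2 1.66). Fn1, the matrix protein fibronectin, had 497 and 372 CPM, against 187 and 152 CPM (log2 1.34). The groups did not overlap for any of these 4 genes, nor for 1280 of the 3334 genes tested. Calls of the 4 genes held in all 10 refits with a test, or in 9 for Vcan, to which DESeq2 gave no adjusted p.

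The other named genes higher in positive cells were Cd177 (log2 1.99), Gm14005 (1.59), Ptgs2 (1.45), Osm (1.44), Saa3 (1.37), Mcemp1 (1.23), Clec4d (1.18), Dmkn (1.16), Adam8 (1.10), F13a1 (1.09) and Hp (1.09). Ptgs2 makes prostaglandins, Osm encodes the cytokine oncostatin M, and F13a1 encodes a coagulation factor subunit. Each of them lost its call in at least 1 refit. Saa3 came largely from metastasis 2, with 37.8 and 232 CPM in positive cells, against 29.4 and 76.2 CPM in negative cells.

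**Figure D3:**
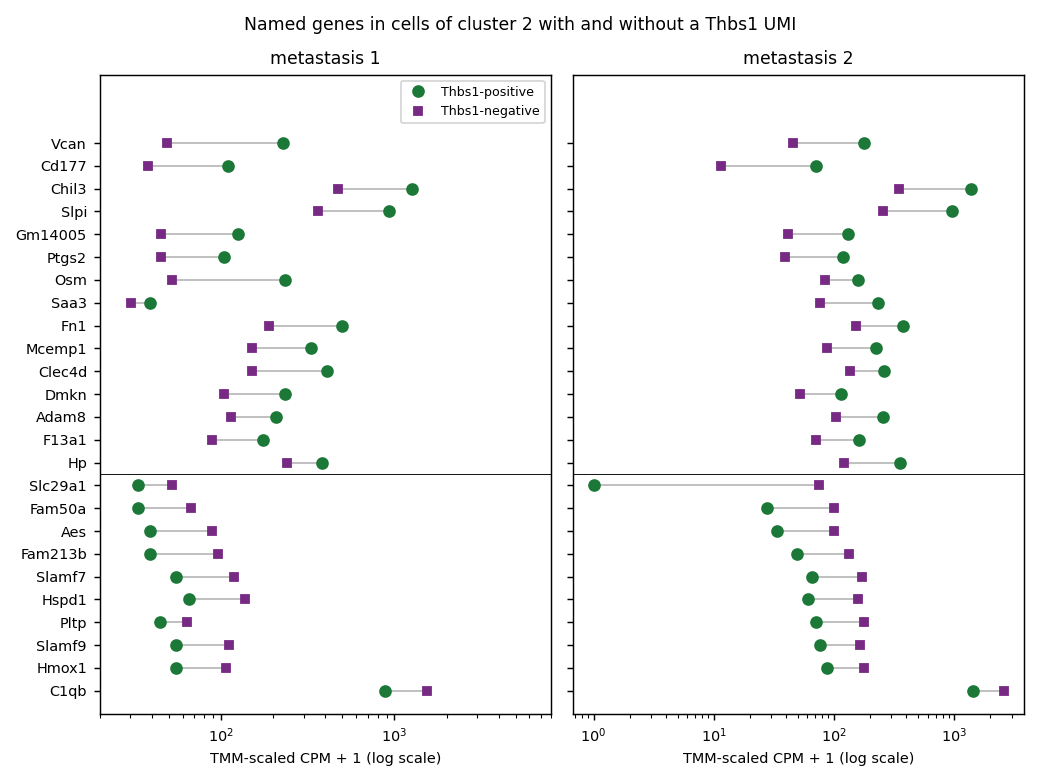
TMM-scaled CPM (log axis, 1 added) of the 25 named genes in Thbs1-positive (circles) and Thbs1-negative (squares) cells of cluster 2, for each brain with metastases. The upper 15 genes lie to the right in positive cells of both brains and the lower 10 to the left.

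Of 13 macrophage genes tested, 7 were lower in Thbs1-positive cells and 6 were not called. C1qb, a chain of complement C1q, had 881 and 1422 TMM-scaled CPM in positive cells of metastasis 1 and 2, against 1535 and 2590 CPM in negative cells (log2 -0.84, SE 0.09, edgeR adjusted p = 1.13e-16). Cd74, the MHC class II invariant chain, had 7321 and 9275 CPM, against 12433 and 13558 CPM (log2 -0.65, edgeR adjusted p = 5.10e-16). C1qb and Cd74 differed in the same direction in both brains, and C1qb lost its call only in the fit without the block. The remaining named genes that fell, Slc29a1, Fam50a, Aes, Fam213b, Slamf7, Hspd1, Pltp, Slamf9 and Hmox1, had log2 fold changes of -1.98 to -1.01, and each lost its call in at least 5 refits. Fam213b is the gene whose pattern over clusters was most like Thbs1, yet within cluster 2 it had 37.8 and 48.5 CPM in positive cells, against 95.5 and 133 CPM in negative cells.

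The monocyte list had a median log2 fold change of 0.77 between positive and negative cells, beside 0.01 over all genes tested. Lyz2 (0.43) and Plac8 (0.66) were among the genes that rose, while Ms4a4c was at 0.04. The macrophage list had a median of -0.49, and of 6 MHC class II genes 4 were lower, with a median of -0.63. Among 14 inflammatory genes 3 rose: Il1b, encoding interleukin-1β (0.85), Cxcl2, a neutrophil chemokine (0.98), and Ptgs2. Among 12 immediate early genes Ier3, Dusp1 and Nr4a1 rose, while Junb was at 0.10 and Fos at 0.14.

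Lists close to the ligand and its receptors were small, and their calls are given as counts. Over all genes tested 4.23% were called, and lists of this size cannot be told from that share. Of 7 other receptors and partners of thrombospondin-1 tested, 0 were called, with Calr at -0.15, Sdc4 at -0.18 and Tgfb1 at 0.22. In SIRP family and signalling genes 1 of 7 rose, Tyrobp, an adaptor with an activating motif (0.36). Of 5 other regulators of phagocytosis 0 were called, and of 4 scavenger receptors 1 fell, Cxcl16 (-0.49). In lipid uptake genes 2 of 9 fell, Fabp5 (-0.77) and Apoe (-0.33), and of 4 CD36 co-receptors and kinases 1 rose, the kinase Lyn (0.63). In wound repair genes 2 of 9 rose, Plaur and Emilin2, in glycolysis and hypoxia genes 1 of 11 fell, Hmox1, in type I interferon genes 1 of 12 rose, Ifitm3, and in cell cycle genes 1 of 4 fell, Tubb5. None of the 4 other thrombospondin genes passed the filter.

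**Figure D4:**
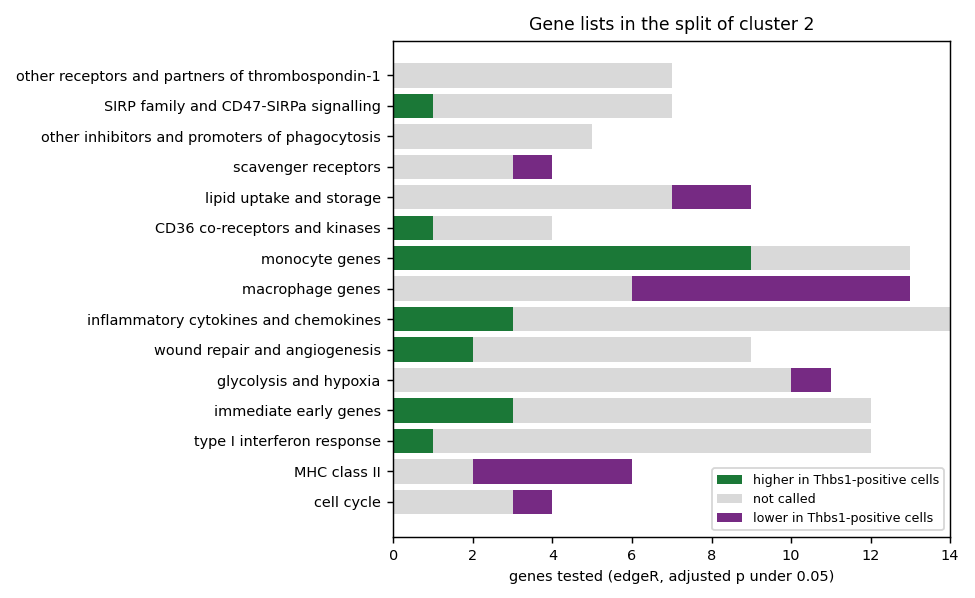
Number of genes tested in each list (bars along the horizontal axis), divided into those higher in Thbs1-positive cells, those not called and those lower. Monocyte genes hold 9 higher calls of 13, and macrophage genes hold 7 lower calls of 13.

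Neither receptor that could be tested passed. Cd47 differed by 0.12 log2 units between Thbs1-positive and Thbs1-negative cells (SE 0.12, edgeR adjusted p = 0.761), and Sirpa by -0.05 (SE 0.19, edgeR adjusted p = 0.976). Cd36 did not pass the filter. A Cd47 UMI was found in 40.9% and 41.0% of Thbs1-positive cells, against 36.3% and 38.2% of Thbs1-negative cells. A Sirpa UMI was found in 16.1% and 17.0%, against 13.3% and 19.3%.

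Of 6 surface tags, which the split did not use, CD11b, CD45 and CD86 had higher unscaled means in positive cells of both brains. Mean CD11b tags per cell were 360 and 401 in positive cells, against 243 and 296 in negative cells. Mean CD45 tags were 278 and 288, against 212 and 226, and CD86 tags were 16.8 and 17.6, against 13.4 and 16.1. The other tags, CD25, CD3e and CD4, averaged 0.465 to 3.34 per cell in positive cells, against 0.630 to 2.95 in negative cells. As a share of all 6 tags, CD11b was 54.7% and 56.3% in positive cells, against 51.4% and 54.5%. The shares of CD45 and CD86 were lower in positive cells of both brains. CD45 was 42.2% and 40.5%, against 44.8% and 41.6%, and CD86 was 2.54% and 2.48%, against 2.82% and 2.96%. Positive and negative cells came from the same 2 brains, too few pairs for an exact test to pass, so these are values without a test. Neutrophil markers were uneven, at 599 and 519 CPM in positive cells, against 1564 and 201 CPM in negative cells. Of 5 neutrophil markers tested 1 fell, S100a9 (log2 -0.99, edgeR adjusted p = 0.000576), with 173 and 97.0 CPM, against 477 and 82.5 CPM, so that the brains differed in direction. Of 2 choroid plexus markers tested 1 rose, Ttr (log2 0.25, edgeR adjusted p = 0.0246). The part of such cells or their RNA in the split was not tested. Doublet calls were 0.87% and 1.31% of positive cells, against 3.63% and 3.11% of negative cells. Their part was not tested beyond the fit without them, which also drew the thinning anew.

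Cells grouped by C1qa, C1qb and C1qc UMIs gave a graded view, chosen after the split was seen. Thbs1 was at 1141, 1026, 844 and 435 CPM in metastasis 1 for 0, 1 to 2, 3 to 5 and 6 or more C1q UMIs. In metastasis 2 it was at 1041, 570, 574 and 289 CPM. Sirpa was at 168, 148, 178 and 242 CPM in metastasis 1, from 40, 14, 16 and 20 UMIs. In metastasis 2 it was at 167, 259, 250 and 302 CPM, from 38, 35, 34 and 69 UMIs. Thbs1 was thus lowest, and Sirpa highest, in cells with the most C1q in both brains, while Cd47 had no common order. The Sirpa order rests on few UMIs in metastasis 1 and was not tested. The Thbs1 order comes from the same thinned cells as the split and is not a second result.

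**Figure D5:**
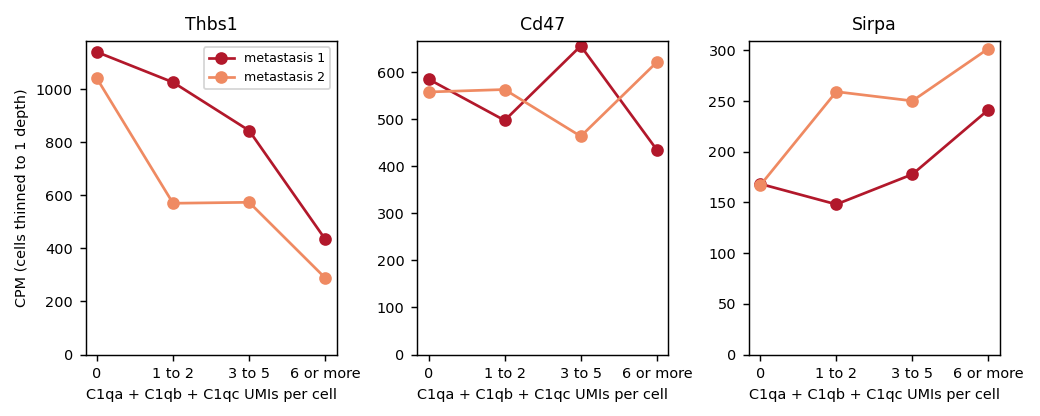
CPM of Thbs1, Cd47 and Sirpa in cells of cluster 2 grouped by their summed C1qa, C1qb and C1qc UMIs, with 1 line for each brain with metastases. Thbs1 is at 435 and 289 CPM in the group with 6 or more C1q UMIs, and Sirpa is at 242 and 302 CPM there.

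The same split was made on the other members, also after the first was seen. Cd47-positive cells differed in 9 of 3818 genes (0.236%). Isg15 (0.51) and Usp18 (1.28), both induced by interferons, Ccl5 (0.39), Ngp and Camp were higher, and Ttr, Cd74, H2-Ab1 and Enpp2 were lower. Sirpa-positive cells differed in 0 of 3738 genes by edgeR, with 182 at an unadjusted p under 0.05. Cd36-positive cells, split without thinning, differed in 0 of 6643, with 417 at an unadjusted p under 0.05.

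Promoters of 3 genes that rose with Thbs1 are shown because they had the lowest adjusted p among the monocyte and inflammatory lists. They run from 250 bases before to 50 after the start of transcription, from RefSeq on GRCm38.p6, written 5′ to 3′ along the gene. Of the members, 2 of 4 (Cd47 and Cd36) matched an entry. Capitals mark matches, on both strands, to a C/EBP motif (TTNNGNAA), an NF-kB motif (GGNNTTNCC), an AP-1 motif (TGANTCA) or a PU.1 motif (GAGGAA).
Chil3: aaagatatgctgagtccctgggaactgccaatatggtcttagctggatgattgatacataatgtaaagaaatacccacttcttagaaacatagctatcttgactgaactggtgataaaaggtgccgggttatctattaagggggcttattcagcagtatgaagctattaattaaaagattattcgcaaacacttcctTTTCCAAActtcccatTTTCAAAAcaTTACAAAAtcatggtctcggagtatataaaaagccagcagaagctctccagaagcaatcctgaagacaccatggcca
Cxcl2: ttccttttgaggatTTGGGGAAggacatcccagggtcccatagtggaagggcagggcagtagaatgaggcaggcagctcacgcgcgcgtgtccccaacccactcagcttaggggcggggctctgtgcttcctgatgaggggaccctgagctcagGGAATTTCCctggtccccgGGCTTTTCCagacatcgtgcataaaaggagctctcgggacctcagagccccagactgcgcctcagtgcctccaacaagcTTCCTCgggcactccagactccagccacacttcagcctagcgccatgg
Il1b: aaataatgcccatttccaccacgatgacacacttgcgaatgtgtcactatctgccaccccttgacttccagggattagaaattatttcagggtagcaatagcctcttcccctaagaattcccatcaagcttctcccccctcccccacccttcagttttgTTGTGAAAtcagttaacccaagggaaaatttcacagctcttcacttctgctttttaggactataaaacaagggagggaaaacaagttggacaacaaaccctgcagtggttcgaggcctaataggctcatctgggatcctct
Chil3 held 3 C/EBP matches, at chr3:106167515-106167814 on the minus strand. Cxcl2 held 2 NF-kB matches, 1 C/EBP match and 1 PU.1 match, at chr5:90903649-90903948 on the plus strand. Il1b held 1 C/EBP match, at chr2:129371090-129371389 on the minus strand. Of 27025 promoters in the table, 40.7% held the C/EBP motif, 15.8% the NF-kB motif, 7.93% the AP-1 motif and 28.3% the PU.1 motif. A match is a description of letters and not a bound site.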

How the data were processed

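Per the file headers and their whole-number values, the deposited RNA table holds UMI counts per gene and cell and the deposited tag table holds tag counts per antibody and cell, both as the authors left them before any scaling. The deposited per-cell table gives the authors' cluster number, hashing antibody, condition and percent of mitochondrial UMIs for 12421 cells. The submitters' processing notes name Cell Ranger 3.0.2, Seurat 3.0.1 and the build mm10, without settings. No further filter on cells was applied and free RNA was not corrected.

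Members and gene lists were chosen with earlier results of these data known. Counts were summed per brain and cluster, or per brain and Thbs1 call after thinning without replacement, and fitted with edgeR 4.0.16 (R 4.3.3, TMM scaling, filterByExpr, quasi-likelihood, Benjamini-Hochberg adjusted p under 0.05). SE is the log2 fold change over the root of F. The brain block pairs positive and negative cells of the same brain. Genes were named in the split when called, with 1 direction in both brains and at least 50 CPM on the higher side, as the 15 largest rises and 10 largest falls. List examples were the 3 genes of highest mean CPM and those called. Scrublet in scanpy 1.11.5, at an expected rate of 8%, called 220 cells doublets (1.77%), which were kept in the main fits. On simulated counts the split recovered 43% of genes changed 2-fold, with 3362 genes tested. The simulated spread was a chosen value, the same for every gene and not estimated from these data. That share is therefore not the power of the real split. Alternatives were DESeq2 1.42.0, RLE scaling, no filter, other thinning, no block, each brain left out, and doublets or carcinoma-marker cells left out.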

Additional observations from a re-analysis of the deposited data

Results flagged for a closer look

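The effect of metastasis on Thbs1 differed between the choroid plexus-like clusters 9 and 7 by 2.33 on the log2 scale (SE 0.43, edgeR interaction adjusted p = 0.000121), a difference between cell clusters under the same contrast. The interaction was added after the data were examined. Thbs1 was higher with metastases in cluster 9 and lower in cluster 7. Leaving out each brain gave 1.96 to 2.77, with edgeR adjusted p of 0.000875 to 0.0081. DESeq2 gave 2.20 and did not call it (adjusted p = 0.0961). Carcinoma-marker UMIs were more frequent with metastases in cluster 7. Without the cells that held them the difference was 2.41, with an edgeR adjusted p of 0.246. Krt18, among these markers, was raised in clusters 7 and 9 themselves, so many naive cells were left out too.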

How the results depend on the processing

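Leaving out each brain gave 25 to 126 higher and 26 to 265 lower genes in cluster 6, 647 to 1072 and 541 to 916 in cluster 7, 4 to 85 and 0 to 11 in cluster 9, and 0 to 188 and 0 to 204 in cluster 11. The main fits gave 106 and 238, 848 and 1008, 133 and 16, and 100 and 322. DESeq2 gave 97 lower genes in cluster 6, 394 higher and 314 lower in cluster 7, 61 and 4 in cluster 9, and 65 and 138 in cluster 11. With no filter there were 0 and 0 in cluster 6, 1497 higher in cluster 7, 7 lower in cluster 9, and 207 and 206 in cluster 11. Without cells called doublets there were 67 higher in cluster 6, and 47 and 1 in cluster 9. Without carcinoma-marker cells there were 1 and 0 in cluster 6, 48 and 19 in cluster 7, 4 and 1 in cluster 9, and 0 and 3 in cluster 11; fewer cells entered those fits.

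Thbs1 in cluster 7 was -1.11 by DESeq2 (adjusted p = 0.150), -1.71 to -0.87 with a brain left out (edgeR adjusted p 0.000309 to 0.0535) and 0.13 without carcinoma-marker cells. In cluster 9 it was 1.07 by DESeq2 (adjusted p = 0.217), 1.11 without doublets (edgeR adjusted p = 0.0695) and 1.00 to 1.11 with a brain left out (0.032 to 0.419). It did not pass the filter there without carcinoma-marker cells. The difference between clusters 9 and 7 was 2.20 by DESeq2 (adjusted p = 0.0961) and 2.41 without carcinoma-marker cells. Cd47, called in no fit, turned sign in cluster 6 by DESeq2 (0.040), with no filter (0.10), without carcinoma-marker cells (0.16) and within the range of -0.16 to 0.076 with a brain left out, and in cluster 9 within -0.038 to 0.38. These causes were not tested.

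The Thbs1 split gave 14 higher and 5 lower genes by DESeq2, 60 higher with no filter, 10 and 1 with no replicate block, and 53 and 28 thinned to the median. Another thinning seed gave 94 and 64, of which 64 and 34 were among the main calls, so single named genes depend on the draw. Without thinning 72 of the 91 higher and 15 of the 50 lower calls remained. All 25 named genes kept their direction in every alternative that gave them a value, and 4 kept their call in every one with a test. In the split Cd47 was -0.086 with another seed, -0.039 with at least 2 Thbs1 UMIs and -0.075 without doublets. Split fits without doublets or carcinoma-marker cells also redrew the thinning, so their changes cannot be told from those of another seed. Positive cells of metastasis 2 went from 229 to 243 without doublets. Sirpa was 0.057 thinned to the median and -0.21 to 0.17 with 1 brain left, which gives no test. 

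In cluster 2 with metastases Cd47 was 579 CPM without doublets, 586 without carcinoma-marker cells and 566 as a mean over cells, and Cd36 was 28.8 and 30.0 in the last 2. Shares at 500, 2000 and all UMIs were 25.7%, 53.6% and 45.8% for Thbs1, 24.98%, 66.1% and 57.8% for Cd47, 9.87%, 32.2% and 30.9% for Sirpa, and 1.82%, 4.06% and 4.11% for Cd36. Naive depth limits cluster 2, where 3 UMIs equal 242 and 639 CPM. Each condition had 2 brains.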
